A study of Mus musculus with 10 samples.

Results

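Ttr encodes transthyretin, and its transcript was compared between the caudal and the rostral end of the mouse neocortex at E11.5, a stage of embryonic development. The gene was chosen on its caudal over rostral ratio in these data, so that ratio is described here without a test. Of the 21766 probes of the array that are not control spots, 16632 carry 1 gene symbol, and 1 of these, CG_Mm_3002942_1, is named Ttr, so the gene is 1 of 15063 named in this way. Results of this one probe therefore cannot be checked against another probe of the gene.

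Transthyretin is a secreted protein that carries thyroxine and, bound to retinol-binding protein, vitamin A. In the brain it is made by the epithelium of the choroid plexus, which forms from the dorsal midline of the telencephalon beside the cortical hem, a source of WNT and BMP signals, and releases the protein into the cerebrospinal fluid. Liver, yolk sac and the pigment epithelium of the retina are the other well-known sources, so the transcript marks the choroid plexus only where those tissues are absent.

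Tissue came from E11.5 embryos of an outbred stock, MF1, with 3 pools, and an inbred strain, C57 (C57Bl\6), with 2 pools; the labels give no treatment or mutation. A pool joined tissue of 3 embryos, and the caudal and rostral material of a pool was amplified as cDNA and hybridised together on 2-colour arrays. Each pool was hybridised on 2 arrays with Cy3 and Cy5 exchanged, which gave 10 arrays. The pool was the replicate, p-values measure only the spread between these pools, and the small number of pools limits the precision.

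Values are given on a log2 scale as caudal over rostral, on which 0 is no difference and 1 is a 2-fold excess at the caudal end. They give no level of a transcript, so the presence of cortical or choroid plexus transcripts in the dissected tissue could not be judged from them. The deposited ratio was read as Cy5 over Cy3. The deposit does not state which channel is on top, so this reading is only likely. Its basis is the labelling of the channels together with Nr2f1, a nuclear receptor known for a caudal gradient in the cortical primordium, whose mean ratio was 1.85 under it; with the opposite reading every sign would turn together.

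Ttr was measured on all 10 arrays and never at the ceiling of the deposited scale. In MF1, pool 1 had ratios of 0.70 with caudal RNA in Cy5 and 0.60 with caudal RNA in Cy3. Pool 2 had 1.58 and 1.54, and pool 3 had 1.41 and 1.36, in the same order of dyes. In C57, pool 1 had 1.98 and 2.44 and pool 2 had 2.35 and 1.91. Every array had more Ttr RNA at the caudal end. MF1 pool 1 was the lowest pool on both of its arrays, and the 4 C57 arrays were all higher than the 6 MF1 arrays.

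**Figure D1:**
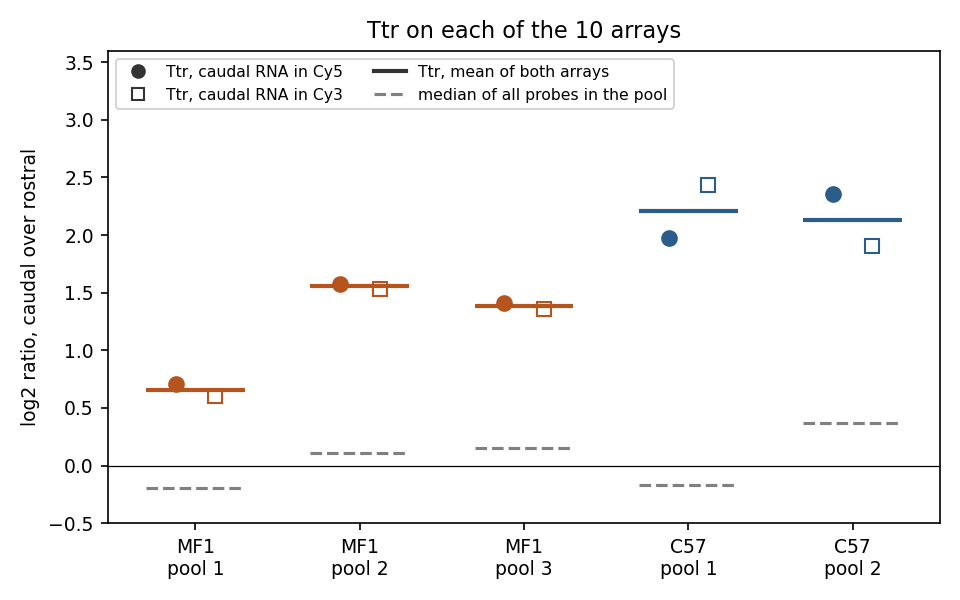
Log2 ratio of caudal over rostral Ttr RNA (vertical axis) in each pool (horizontal axis; MF1 in orange, C57 in blue). Filled circles are arrays with caudal RNA in Cy5, open squares arrays with caudal RNA in Cy3, solid bars the mean of both, and dashed bars the median of all probes in that pool; the 10 Ttr values run from 0.60 to 2.44 and all lie above the median of their pool.

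Averaged over the 2 arrays, Ttr stood at 0.65, 1.56 and 1.39 in MF1 pools 1 to 3 and at 2.21 and 2.13 in C57 pools 1 and 2. On a linear scale the excess at the caudal end was 1.57-fold, 2.94-fold and 2.61-fold in the MF1 pools and 4.62-fold and 4.37-fold in the C57 pools. The pools of the 2 strains did not overlap. The mean was 1.20 ± 0.48 in MF1 (SD, n = 3 pools) and 2.17 ± 0.06 in C57 (SD, n = 2 pools). A limma fit to all probes, with both strains given equal weight, put the mean of Ttr at 1.68 ± 0.19 (moderated SE, n = 5 pools), a 3.21-fold excess. In such bulk tissue, more cells with Ttr RNA and more Ttr RNA per cell cannot be told apart.

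The deposited ratios were not centred, and the median of all probes was -0.20, 0.11 and 0.15 in the MF1 pools and -0.17 and 0.37 in the C57 pools. Ttr exceeded the median of its own pool by 0.85, 1.45 and 1.23 in the MF1 pools and by 2.38 and 1.76 in the C57 pools. The caudal excess was therefore seen in every pool relative to the bulk of the probes as well. With each array centred on its median, the mean of Ttr was 1.63 ± 0.16 (moderated SE, n = 5 pools).

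Ttr lay farther out among all probes in the C57 pools than in the MF1 pools, by value. In the MF1 pools, 4.43%, 4.57% and 5.80% of the probes measured on both arrays had a higher ratio than Ttr. In the C57 pools, 0.242% and 0.644% did, which was 47 of 19387 and 128 of 19875 probes. On single arrays more probes lay above Ttr, 5.34% to 16.7% in MF1 and 0.767% to 2.21% in C57. Measured in robust SDs of the pool (scaled from the median absolute deviation), Ttr lay 2.52, 2.55 and 2.61 above the median in the MF1 pools and 6.46 and 9.47 above it in the C57 pools. The spread of all probes was widest in MF1 pools 2 and 3, with robust SDs of 0.34, 0.57 and 0.47 in the MF1 pools against 0.37 and 0.19 in the C57 pools. The MF1 arrays also gave fewer ratios, for 13723 to 18288 probes, than the C57 arrays, for 20191 to 20870.

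**Figure D2:**
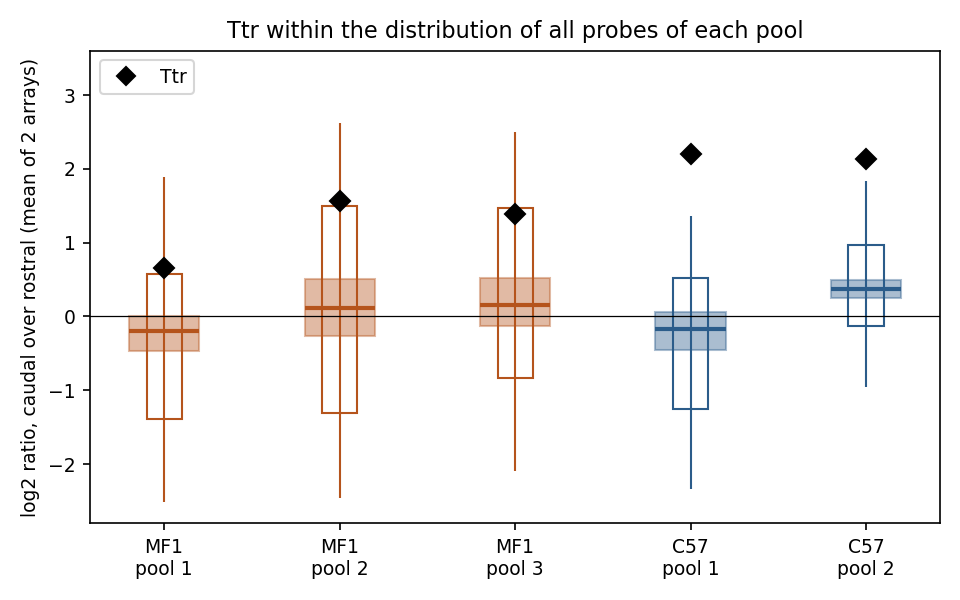
Ttr (black diamonds) within the log2 ratios of caudal over rostral RNA (vertical axis) of all probes measured on both arrays of a pool (horizontal axis; MF1 in orange, C57 in blue). Thick lines are medians, filled boxes the quartile range, open boxes the 5th to 95th percentile and thin lines the 1st to 99th percentile; Ttr sits near the 95th percentile in the MF1 pools and beyond the 99th in the C57 pools.

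By the mean of both strains, Ttr was number 3 of the 11855 probes with ratios in at least 2 pools of each strain. It was number 158 by the MF1 mean and number 3 by the C57 mean. Next above it were Nr2f1 at 1.85 ± 0.22 (SE, n = 5 pools) and Gabra2, a subunit of the GABA-A receptor, at 1.75 ± 0.57. Next below it were Npr2, a natriuretic peptide receptor, at 1.53 ± 0.26 from 4 pools, and Timp1, an inhibitor of matrix metalloproteinases, at 1.49 ± 0.185. Nr2f1, Gabra2 and Npr2 each differed from Ttr by less than their own SE, and Timp1 by slightly more than its own, so the order among these neighbours is not settled. Gabra2 ran from -0.15 in MF1 pool 1 to 3.13 in MF1 pool 3, and Npr2 had 3.04 in MF1 pool 1 but 0.29 in C57 pool 2.

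Of the 8924 probes measured on all 10 arrays, 36 were positive on every one, Ttr among them, which is 0.403% of these probes. Taking the lowest Ttr value, 0.60, as a bound set by Ttr itself, only Ttr and the Nr2f1 probe named above reached it on all 10 arrays. On the rostral side, 1 probe kept to -0.60 or lower on all arrays, for Sfrp1, a secreted WNT antagonist. These counts are without centring. On arrays centred on their medians, 92 probes were positive on all 10 arrays, Ttr among them, and 30 were negative. Since the ratio of Ttr chose the gene, nothing is read from any of these counts.

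The dye exchange gives a measure of Ttr that its choice did not use. A dye bias shifts both arrays of a pool the same way in Cy5 over Cy3, whereas a difference between regions changes sign with the exchange. The dye effect of Ttr, the mean of the 2 deposited ratios of a pool, was 0.05, 0.02 and 0.03 in the MF1 pools and -0.23 and 0.22 in the C57 pools. Its mean was 0.02 ± 0.09 (SE, n = 5 pools), and limma gave an adjusted p of 0.888 over the 11855 probes. The C57 pools had the larger dye values, and these had opposite signs. On arrays centred on their medians the sign of the mean turned, to -0.14 ± 0.06 (limma adjusted p = 0.424). The mean of the 5 arrays with caudal RNA in Cy5, 1.61, was close to that of the 5 arrays with caudal RNA in Cy3, 1.57.

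Without centring, the median absolute dye effect of the tested probes was 0.21, and 95.7% of them had a larger one than Ttr. These values include any shift of a whole array between the dyes. Relative to the median of its array, Ttr was lower with caudal RNA in Cy5 than in Cy3 in every pool. In MF1 it had 0.63 and 1.05, 1.39 and 1.55, and 1.18 and 1.35 in pools 1 to 3. In C57 it had 2.14 and 2.64, and 1.69 and 1.83, in pools 1 and 2. The share for centred arrays was not computed. The small mean of Ttr without centring joins small MF1 values with larger C57 values of opposite sign. Within single pools, 9.12%, 4.08% and 7.94% of the probes had a smaller absolute dye effect than Ttr in the MF1 pools, and 55.6% and 29.2% in the C57 pools. No probe passed an adjusted p of 0.05 for the dye effect in limma (0%, smallest adjusted p 0.0955), while 26% had an unadjusted p under 0.05. Across the probes measured on both arrays of a pool, the 2 arrays, once turned to caudal over rostral, had Pearson correlations of -0.17, -0.25 and -0.23 in the MF1 pools and 0.03 and -0.14 in the C57 pools. These correlations are across probes, which share array and labelling, and are given as a description. The 2 arrays of a pool had the same sign for 44.4%, 51.0% and 56.4% of the probes in the MF1 pools and for 58.3% and 59.6% in the C57 pools. On centred arrays these shares were 47.1%, 52.8% and 56.6% in the MF1 pools and 55.7% and 46.0% in the C57 pools. Since Ttr was chosen for a high ratio on these arrays, its own agreement in sign is not set against them.

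**Figure D3:**
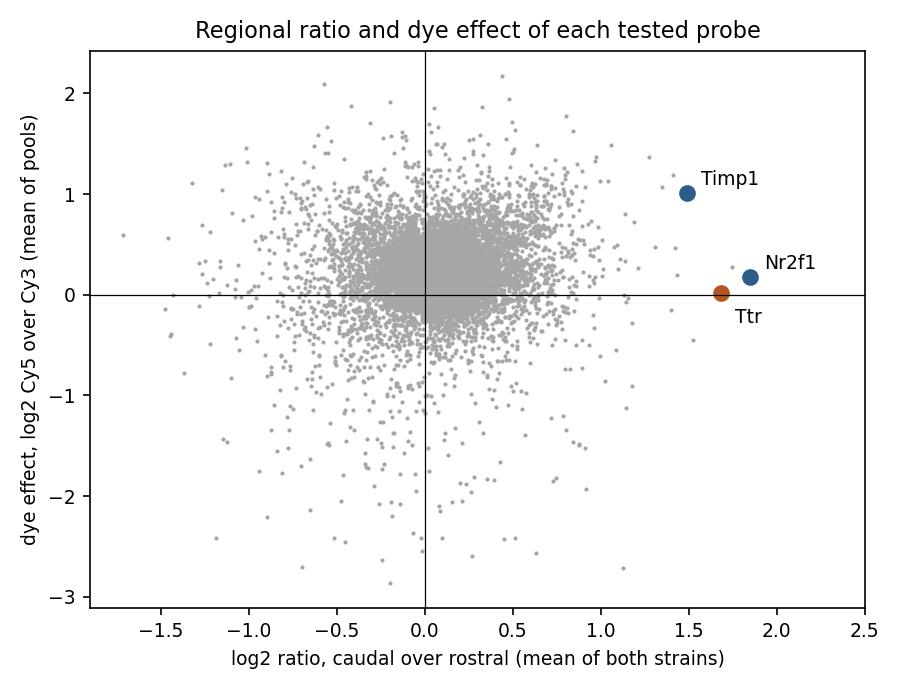
Mean log2 ratio of caudal over rostral RNA (horizontal axis) and dye effect as log2 Cy5 over Cy3 (vertical axis) of the 11855 tested probes, each a grey point. Ttr (orange) lies at 1.68 and 0.02, next to Nr2f1 at 1.85 and 0.17, while Timp1 has a similar regional ratio, 1.49, and a dye effect of 1.01.

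Without centring, the 2 arrays of a pool lay close together for Ttr in MF1. In C57 they lay farther apart, at 1.98 and 2.44 in pool 1 and 2.35 and 1.91 in pool 2. An array departed from the mean of its pool by 0.146 (root mean square over the 5 pools), against a median of 0.296 over the 8924 probes measured on all arrays, 8.92% of which had a smaller value. The spread between pools of a strain was ordinary. The residual SD of Ttr was 0.39 and the median over the same probes 0.37, with a smaller SD in 53.2% of them. Within MF1, pool 1 stood apart from the others, and without that pool the MF1 mean was 1.47.

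The array also carries 232 control spots for Gapdh, a glycolytic enzyme, which measure 1 transcript many times. Their robust SD was 0.16 to 0.23 on the MF1 arrays and 0.10 to 0.19 on the C57 arrays. Their medians were not all near 0, at -0.19 to 0.19 on the MF1 arrays and -0.006 to 0.48 on the C57 arrays. In C57 pool 1 they were 0.48 with caudal RNA in Cy5 and 0.13 in Cy3, where all probes had -0.16 and -0.20. The strain difference of Ttr relative to these spots was not computed. Between 0 and 6 of the 227 to 230 control spots measured on an MF1 array had a higher ratio than Ttr, and 0 to 2 of the 226 to 229 on a C57 array. The ratio that chose Ttr is used here, so these counts are a description.

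Using 2 strains served to control for expression patterns that depend on the strain. The Ttr ratio was lower in MF1 than in C57 by value, with a difference of -0.97 ± 0.37 (SE) and an unadjusted 95% interval from -1.89 to -0.05. In limma the unadjusted p was 0.0418 and the adjusted p over the 11855 probes 0.999, so the difference did not pass. No probe passed this comparison (0%), and 1.88% had an unadjusted p under 0.05. Among the tested probes, 6.25% had a larger absolute difference. An exact permutation of the 5 pools, two-sided on the absolute difference, gave p = 0.1, the smallest p that 3 pools against 2 allow, which restates that the pools did not overlap and could not pass 0.05.

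The size of this difference depended on the scaling. With the arrays centred and scaled to a common spread it was -2.21 ± 0.24 (limma adjusted p = 0.591), with a mean of 0.98 in MF1 and 3.19 in C57. With centring alone it was -0.88 ± 0.33 (limma adjusted p = 0.999).

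Blood markers followed the order of Ttr over the pools. The 7 tested probes for 6 blood genes had medians of -0.03, 0.26 and 0.18 in the MF1 pools and 0.64 and 0.38 in the C57 pools, in the same order as Ttr from lowest to highest. Relative to the median of all tested probes the blood medians were 0.15, 0.14 and 0.03 in the MF1 pools and 0.74 and 0.03 in the C57 pools, and the order was no longer shared. All 7 probes had a positive mean, from 0.09 to 0.52, with the embryonic globins Hbb-y at 0.52 ± 0.15 and Hbb-bh1 at 0.51 ± 0.16 the highest; neither passed in limma (adjusted p = 0.983). The probes for the alpha-like globins, 2 for Hba-x and 1 for Hba-a1, lay between -0.008 and 0.04 in all 3 MF1 pools, so the MF1 medians rest in part on probes with almost no ratio. The part of blood in the Ttr ratio was not tested.

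Other genes of the choroid plexus epithelium lay close to the bulk of the probes. Of the 36 listed, 28 had a probe and 16 could be tested, 1 probe each, of which 9 were positive and 7 negative. Their median was 0.07, against 0.09 for all tested probes, and the highest, 0.80, was less than that of Ttr. None passed an adjusted p of 0.05 in limma, as was true of all 11855 probes (0%, smallest adjusted p 0.567 among those other than Ttr); 2 of the 16 had an unadjusted p under 0.05, against 3.1% of all probes.

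Those 2 were Folr1, a folate receptor through which the choroid plexus delivers folate, and Col9a3, a collagen IX chain. Folr1 had 0.02 and 0.29 in MF1 pools 1 and 3 and 1.19 and 0.57 in C57 pools 1 and 2, with no value in MF1 pool 2. It was positive in 4 of 4 pools, with a mean of 0.52 ± 0.19. Col9a3 had 1.85 and 2.05 in MF1 pools 1 and 2 and 0.13 and -0.82 in the C57 pools. Its mean of 0.80 ± 0.22 hid opposite signs in the dye orders: arrays carrying the caudal sample in Cy5 averaged -0.54, and those carrying it in Cy3 averaged 2.14.

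Other defining markers of the epithelium lay on both sides of 0 or were sparsely measured. Kcne2, a potassium channel subunit, had -0.27, 0.85 and -0.46 in the MF1 pools and -0.09 and -1.35 in the C57 pools, with a mean of -0.34 ± 0.29. Otx2, a homeobox factor needed for choroid plexus formation, had -0.39, 0.07 and -0.32 in the MF1 pools and 0.08 and 0.33 in the C57 pools, with a mean of -0.003 ± 0.15. Neither gene lay on one side in all pools. Aqp1, a water channel, and Kl, which encodes klotho, gave ratios on too few arrays to be tested. Aqp1 had -0.45 in MF1 pool 1 and 0.08 and 0.28 in the C57 pools. The better measured of the 2 Kl probes had 0.74 in MF1 pool 3 and 0.02 and 0.08 in the C57 pools. No probe was named Clic6 or Enpp2. The label of a choroid plexus marker thus rests on what is known of Ttr and not on a shared ratio of these genes.

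Genes of the cortical hem and roof plate, the tissue next to the choroid plexus, had 8 positive and 3 negative probes among 11 tested, with a median of 0.15 against 0.09 for all tested probes. None passed in limma. Rspo3, a secreted enhancer of WNT signalling, had 0.84, 1.25 and 1.45 in the MF1 pools and 0.62 and 0.98 in the C57 pools. It was the 1 member of this list positive in all its pools, and, unlike Ttr, it did not have its highest values in C57. Its mean was 0.99 ± 0.16 (limma adjusted p = 0.983), and it averaged 1.37 where Cy5 carried the caudal sample and 0.68 where Cy3 did. The hem ligand Wnt3a had 0.51 and 0.89 in MF1 pools 1 and 3 and -0.09 and 0.48 in the C57 pools. Lmx1a, a roof plate factor, had 0.45, 0.18 and 2.34 in the MF1 pools and -0.69 and 0.71 in the C57 pools, and its mean was 0.50 ± 0.39.

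Partners of transthyretin in the handling of thyroid hormone and retinol were poorly measured. Of 22 genes listed, 18 had a probe and 5 could be tested, 4 positive and 1 negative, with a median of 0.30, and none passed in limma. On the arrays with the caudal sample in Cy3 the list's median was -0.22. Rbp4, the retinol-binding protein that travels with transthyretin, gave a ratio on 1 of 10 arrays. Stra6, a receptor for retinol-binding protein, had -2.78 in MF1 pool 1 and 0.98 and 0.73 in the C57 pools, and was not tested. Lrp2, an endocytic receptor that takes up transthyretin, had a first probe at -0.38 in MF1 pool 1 and 0.45 in C57 pool 2, and a second probe with no pool value. Crabp2, a retinoic acid binding protein, stood at 0.35 ± 0.20 and Thra, a thyroid hormone receptor, at 0.36 ± 0.23. Thra turned to -0.27 where Cy3 carried the caudal sample.

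Markers of the other tissues that make Ttr had medians near or below 0, with signs that depended on the setting. For liver and yolk sac, 11 probes for 10 genes were tested, 2 positive and 9 negative, with a median of -0.13 and a highest value of 0.22. This median was 0.13 on the arrays with the caudal sample in Cy5 and 0.04 without C57 pool 1. It was positive in MF1 pool 3, at 0.11, and in C57 pool 2, at 0.41, where all tested probes had medians of 0.15 and 0.36. Relative to all tested probes, the list median was -0.22, -0.68 and -0.04 in the MF1 pools and -0.245 and 0.05 in the C57 pools. The arrays with the caudal sample in Cy5 had medians of all probes from -0.16 to 0.67. Afp, the alpha-fetoprotein of both organs, had -0.51, -0.77 and 0.34 in the MF1 pools and -0.13 and 0.17 in the C57 pools. Alb, albumin, had 0.22 in MF1 pool 2 and -0.01 and 0.34 in the C57 pools, and Apoa1, an apolipoprotein, had 0.47 and 0.02 in MF1 pools 2 and 3 and 0.10 in C57 pool 2. The 2 tested members of smallest p were both negative, Apoc2, another apolipoprotein, at -0.57 ± 0.24 and Ahsg, fetuin-A, at -0.67 ± 0.51. For the retinal pigment epithelium and eye, 3 of 9 probes were positive, with a median of -0.04, which was 0.31 on the arrays with the caudal sample in Cy5 and turned sign in 6 of 17 alternatives. There Rlbp1, a retinaldehyde-binding protein, had -0.40 ± 0.18 from 4 pools, with a sign that turned with the strain, and Six3, an eye and forebrain factor, 0.57 ± 0.43.

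For meninges and mesenchyme, 3 of 6 probes were positive, and the median was -0.04. Lum, a matrix proteoglycan, stood at 0.77 ± 0.36 and Col3a1, a fibrillar collagen, at -0.44 ± 0.29. For the cortical neuroepithelium, 8 of 13 probes were positive, and the median was 0.06. Lhx2, a cortical selector factor, stood at 0.32 ± 0.15. Slc1a3, a glutamate transporter of radial glia, had 2 tested probes, at -0.54 ± 0.16 and -0.15 ± 0.46. No probe of these lists, or of the liver, eye and retinol lists, reached the mean of Ttr or passed in limma.

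**Figure D4:**
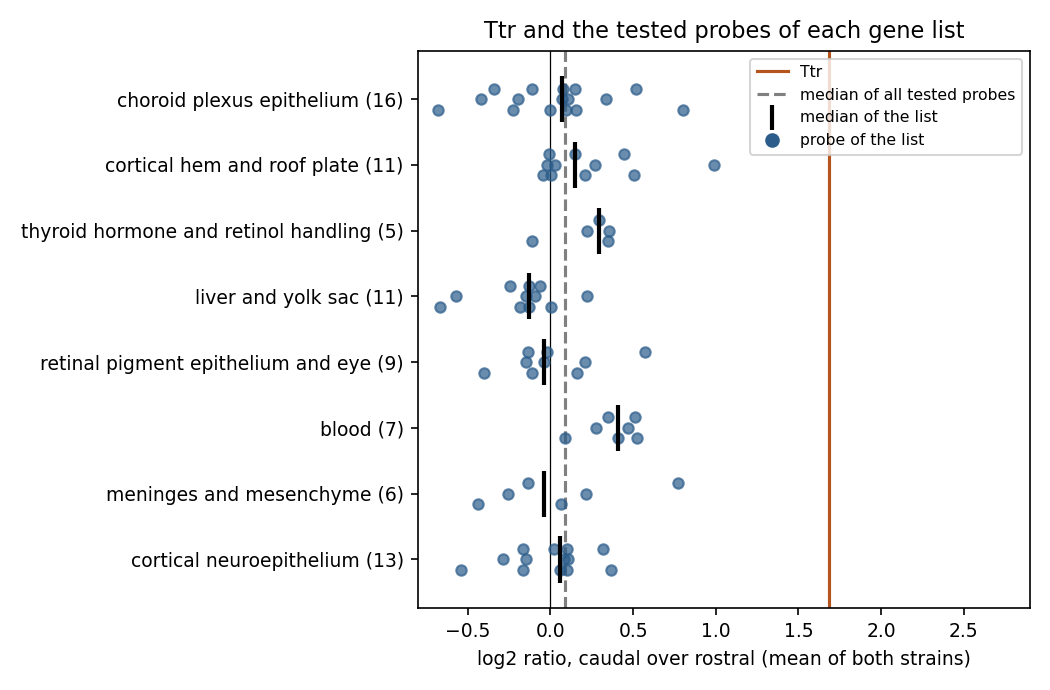
Mean log2 ratio of caudal over rostral RNA (horizontal axis) of each tested probe (blue points) in 8 gene lists, with the number of probes in brackets, the median of each list (black bar), the median of all tested probes (dashed line, 0.09) and Ttr (orange line, 1.68). No listed probe reaches Ttr; the nearest is Rspo3 at 0.99.

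The probes whose values over the 10 arrays were most like those of Ttr were found by the Euclidean distance between arrays centred on their medians, among named probes measured on all 10. They were Nr2f1 at a distance of 2.48, Gng2, a G protein subunit, at 2.75, Gpm6a, a neuronal membrane glycoprotein, at 2.86, 4930461C15Rik, an uncharacterised transcript, at 2.94, and Epha3, an Eph receptor, at 2.97. Nr2f1 had 1.33, 1.07 and 1.15 in the MF1 pools and 3.14 and 1.89 in the C57 pools, so it shared with Ttr the higher values in C57. Gng2 had 0.11, 1.57 and 1.04 in the MF1 pools and 1.11 and 0.82 in the C57 pools. Gpm6a had 0.25, 1.67 and 1.29 in the MF1 pools and 0.64 and 1.04 in the C57 pools. These 2 had their lowest value in MF1 pool 1, as Ttr did, but their C57 pools lay within the range of their MF1 pools. Epha3 was lowest in C57 pool 1, at 0.53, and highest in MF1 pool 3, at 1.76. None of the 5 passed the regional comparison in limma. Their likeness to Ttr chose them, so their positive sign and any pattern over pools or strains shared with Ttr are a description. Of the 11855 tested probes, 491 were positive in all their measured pools.

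**Figure D5:**
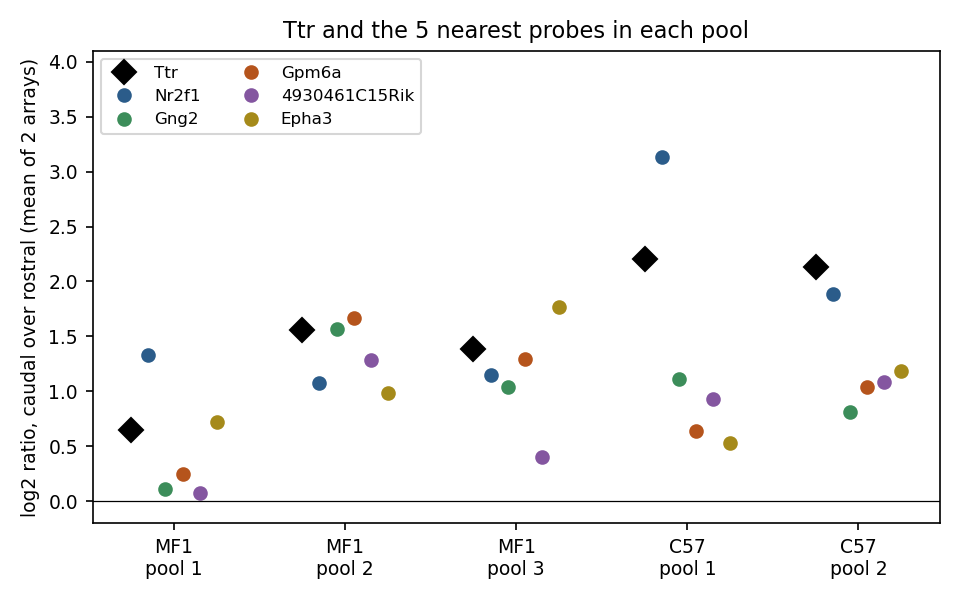
Log2 ratio of caudal over rostral RNA (vertical axis, mean of 2 arrays) of Ttr (black diamonds) and the 5 probes nearest to it (circles) in each pool (horizontal axis). In the C57 pools Nr2f1 has 3.14 and 1.89 and the other 4 probes have at most 1.19; in each MF1 pool at least 1 of the 5 lies above Ttr.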

How the data were processed

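Trizol extraction and labelling with Cy3 and Cy5 are recorded per the labels, and SMART amplification of the cDNA in the series' design text, which also speaks of a further C57 set, not analysed here. The authors deposited log2 ratios of both channels, 1 per probe and array, judged from range and sign; how they scanned, background-corrected and normalized the arrays was not given in the sources used here. Taken as missing were the 436 values at the shared ceiling of 16.61 and the null values, and 232 control spots were left out. Of the 16632 probe symbols, 15952 were matched by gene identifier to RefSeq genes of GRCm38.p6 and none changed.

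Ratios were turned by their dye labels so that caudal stands on top, then averaged within a pool, without centring. Probes with both arrays in at least 2 pools of each strain were fitted in limma 3.58.1 (R 4.3.3; lmFit, eBayes, a coefficient for each strain), with two-sided tests and Benjamini-Hochberg adjustment over 11855 probes at 0.05. The dye effect was fitted with an intercept. Fits were tested on simulated data with independent noise for each probe and pool, which lacked the shifts of whole pools seen here. Robust SDs are scaled median absolute deviations. Figures used matplotlib 3.10.9 in Python 3.11.15.

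Named were Ttr, its 2 neighbours on each side in mean ratio, the 5 nearest probes, the 2 members of smallest p of each list and fixed markers; Sfrp1, Hba-x, Hba-a1 and the second Slc1a3 probe were named after seeing their values. The members and lists were chosen with earlier results of these data known. Alternatives covered centring, scaling, ceiling values, dye orientation, filters, weights, variance model, the block and leaving out each pool.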

Additional observations from a re-analysis of the deposited data

How the results depend on the processing

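Ttr was positive on every array, also relative to the array's median, so its sign under the 17 alternatives was all but fixed in advance. The mean of both strains ran from 1.59 to 2.08. The mean of 2.08 and the C57 value of 3.19, both from centred and scaled arrays, moved by more than the SD between pools. The strain difference stayed negative and without a pass, with adjusted p from 0.591 to 1 in limma and an unadjusted p under 0.05 in 9 of 17 alternatives. The dye effect did not pass in any setting. Its sign turned to -0.14 on centred arrays and -0.26 on centred and scaled arrays (limma adjusted p = 0.424 and 0.318). Centring takes each array's own median out of the dye effect, and the cause of the values that remain was not tested. Leaving out single pools gave a dye effect of -0.032 to 0.0814, with the negative value without C57 pool 2. In the main limma fit no probe passed the regional comparison. Under the alternatives none of the other probes passed, and no call is given for Ttr, which this ratio chose. Of 447 recomputed values of the 28 other probes that the naming rule gave and that were tested, 13 changed sign, over 8 probes, Otx2 most often. Sfrp1, the globins Hba-x and Hba-a1 and the second Slc1a3 probe were not recomputed singly. Over 17 alternatives the list medians changed sign in 6 for eye and for meninges, 4 for neuroepithelium, 3 for liver (0.01 with the replicate block), 2 for choroid plexus, 1 for hem and for retinol handling, and 0 for blood. Pool numbers are shared by the strains, but the deviations of same-numbered pools had correlations of 0.15 and -0.02 over 8924 probes, so the numbers name pools only; with the replicate block the strain difference was -1.06 (limma adjusted p = 0.947) and it changed no call. Leaving out MF1 pool 1 from centred arrays was added after seeing the data and gave a Ttr mean of 1.72. Signal over background is not known here, and transcripts with few ratios, such as Rbp4, cannot be judged.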
